A study of Homo sapiens with 12 samples.

Results

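Keratins are the intermediate filament proteins of epithelial cells, and 10 of their genes were followed in 2 gastric cancer cell lines with and without overexpression of the transcription factor ONECUT2. The genes were taken by name: KRT7, KRT8, KRT18 and KRT19, the keratins of simple (single-layered) epithelia, KRT5, KRT6A, KRT13, KRT15 and KRT17, keratins of squamous (stratified) epithelia, and KRT80. All 10 were listed among the 13091 genes of the expression table. A keratin filament is built from pairs of 1 type I and 1 type II protein, so that KRT8 (type II) needs a partner such as KRT18 (type I). Glandular stomach epithelium normally carries simple keratins, whereas KRT5 and its partners belong to basal cells of stratified tissue, and KRT6A and KRT17 are known for their induction in stressed or wounded epithelium.

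The 4 RNA libraries were AGS with ONECUT2 overexpression, the AGS control, MKN74 with ONECUT2 overexpression and the MKN74 control, where AGS and MKN74 are established human gastric cancer lines. Each group has 1 library, so a change within a line describes that pair of libraries and has no replicate check. The sources used here do not give the vector, the way the controls were treated or the number of clones. CPM, the unit of all levels here, scales a gene's reads to the size of its library. The change of a gene was taken on the log2(CPM + 1) scale as the overexpression value less the control value, which understates differences near 1 CPM. Genes averaging 1 CPM or more in a line's pair of libraries were treated as measured there, and those that differed at least 2-fold, which is 1 on this scale, as higher or lower. A ratio is one of CPM, and its interval in parentheses is exact (Clopper-Pearson, conditional binomial) at 95% and covers counting error only.

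The reads recovered from the values totalled 36492454 in AGS overexpression, 36132888 in the AGS control, 38110453 in MKN74 overexpression and 36097456 in the MKN74 control. ONECUT2 itself stood at 18.3 CPM in AGS overexpression against 4.39 CPM in the AGS control, and at 57.6 CPM in MKN74 overexpression against 5.14 CPM in the MKN74 control. Of 10 epithelial identity markers all were listed, and their summed level was 1891 to 2746 CPM. CLDN3 was the only one of them at 0, in both AGS libraries, and the adhesion gene CDH1 was at 284 and 211 CPM in MKN74 overexpression and control against 8.74 and 7.63 CPM in AGS overexpression and control. Of the endothelial markers 0 of 4 were listed, of the fibroblast markers 1 of 6 (COL1A1, 6.77 to 18.3 CPM), and of the immune markers CD68 and LYZ, 2 of 5. LYZ, a lysozyme that gastric epithelium also makes, gave 7066 and 7661 CPM in AGS overexpression and control, and without it the immune markers summed to 6.14 to 11.2 CPM.

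With ONECUT2 overexpression the squamous keratins KRT6A, KRT13 and KRT17 were at least 2-fold higher in AGS, while in MKN74 the squamous keratins split, KRT5 being higher and KRT6A and KRT13 lower. The simple keratins KRT8 and KRT18 were lower in MKN74 overexpression by less than 2-fold, with smaller differences in AGS. KRT6A and KRT13 thus stood on opposite sides of their controls in the lines, and KRT17 was higher in AGS overexpression and level with its control in MKN74. With 1 library per group these differences between lines could not be tested. KRT80 varied least over the 4 libraries.

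**Figure D1:**
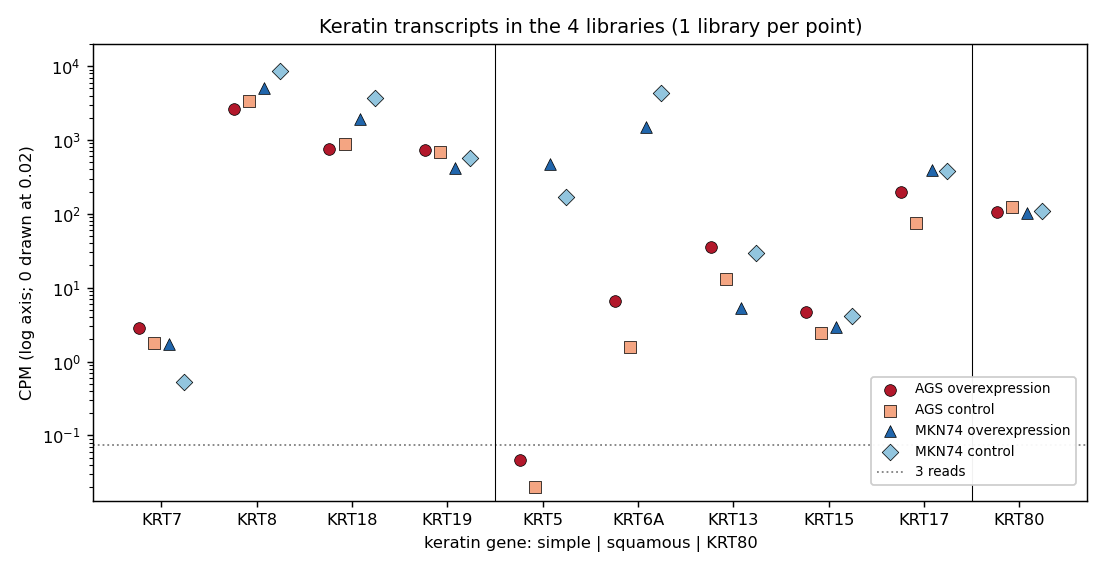
Level of each of the 10 keratins in CPM on a log axis, with 1 point per library (circles, AGS overexpression; squares, AGS control; triangles, MKN74 overexpression; diamonds, MKN74 control), the dotted line marking 3 reads. KRT5 lies at 475 and 169 CPM in the MKN74 overexpression and control libraries and under the line in both AGS libraries (0 is drawn at the bottom), and KRT80 lies between 103 and 123 CPM in all 4.

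Among the simple keratins in AGS, 0 of 4 measured genes were at least 2-fold higher and 0 lower, where 4.19% of all measured genes were higher and 0.728% lower, so a count of 0 among 4 genes does not set them apart. KRT8 was at 2670 CPM in AGS overexpression and 3337 CPM in the AGS control, a change of -0.32, the ratio being 0.800 (0.794 to 0.806). Its sign was not stable to scaling, since quantile normalization of the 4 libraries gave 0.11. KRT18, its partner, was at 760 CPM in AGS overexpression and 886 CPM in the AGS control, a change of -0.22. KRT19, a type I keratin with almost no tail domain, was at 725 CPM in AGS overexpression and 683 CPM in the AGS control, a change of 0.087. Of the 4 genes 2 had a positive and 2 a negative change, with a median of -0.066, and the median over the 11675 genes measured in AGS was -0.0034. KRT7, a keratin of ducts and glands, was rare in both libraries, at 2.82 CPM in AGS overexpression and 1.78 CPM in the AGS control, with a ratio of 1.59 (1.18 to 2.15).

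In MKN74 KRT8, KRT18 and KRT19 were all lower in the overexpression library, and 0 of 4 simple keratins passed 2-fold, where 3.26% of all measured genes were higher and 1.35% lower. KRT8 stood at 5109 CPM in MKN74 overexpression and 8729 CPM in the MKN74 control, a change of -0.77, the ratio being 0.585 (0.582 to 0.588). In the control it held more reads than any other row of the table, and in the overexpression library it ranked 3. KRT18 stood at 1956 CPM in MKN74 overexpression and 3704 CPM in the MKN74 control, a change of -0.92, the ratio being 0.528 (0.524 to 0.532). There were 0.383 KRT18 reads per KRT8 read in MKN74 overexpression and 0.424 in the MKN74 control, against 0.285 and 0.265 in AGS overexpression and control, a ratio of reads not scaled to length. KRT19 stood at 415 CPM in MKN74 overexpression and 573 CPM in the MKN74 control, a change of -0.46. KRT7 went the other way, at 1.701 CPM in MKN74 overexpression (78 reads) and 0.526 CPM in the MKN74 control (22 reads), a ratio of 3.23 (1.99 to 5.45) with a change of 0.82. KRT7 counted as measured in MKN74 only through the overexpression library. The median change of the 4 was -0.62, against -0.020 over the 11914 genes measured in MKN74. KRT8 and KRT18 have many processed pseudogenes, and the sources used here do not say how reads shared with these were counted.

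**Figure D2:**
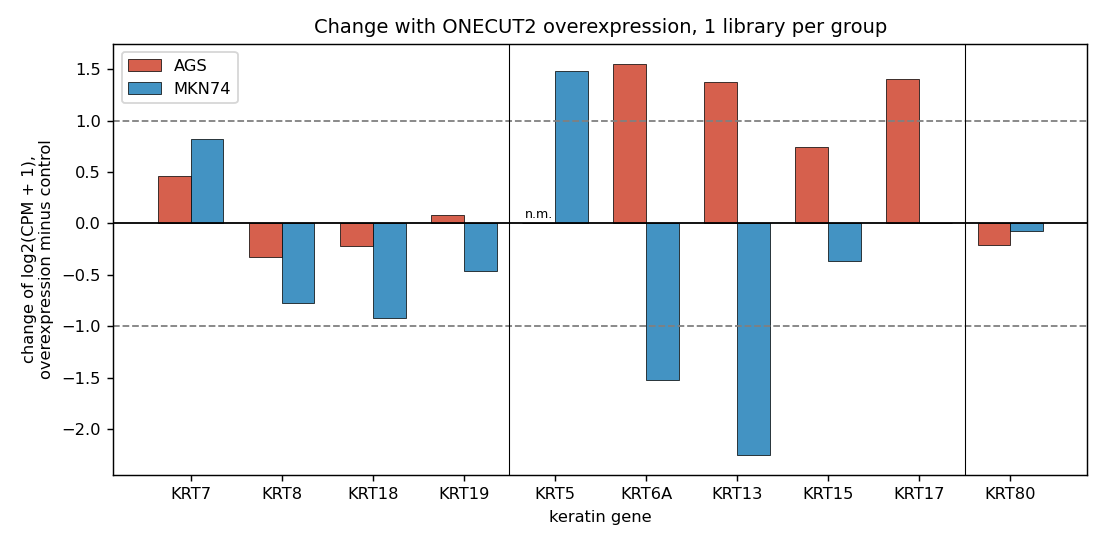
Change of log2(CPM + 1), overexpression minus control, for each keratin in AGS and in MKN74 (1 library per group, no error bars possible), with dashed lines at 2-fold and n.m. where the gene was not measured. Bars of KRT6A and KRT13 point up in AGS, at 1.55 and 1.38, and down in MKN74, at -1.52 and -2.25.

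In AGS 3 of the 9 measured keratins, all of them squamous, were at least 2-fold higher in the overexpression library, where 4.19% of all measured genes were, and 0 were lower, against 0.728%. KRT17, a type I keratin of basal and stressed cells, was at 200 CPM in AGS overexpression and 74.8 CPM in the AGS control, a change of 1.41, the ratio being 2.68 (2.57 to 2.79). KRT13, a type I keratin of the upper layers of moist squamous tissue such as the oesophagus, was at 35.2 CPM in AGS overexpression and 13.0 CPM in the AGS control, with a change of 1.38 and 2.72 as the ratio (2.46 to 3.004). KRT6A, the type II stress keratin, was at 6.52 CPM in AGS overexpression and 1.56 CPM in the AGS control, a change of 1.55, the ratio being 4.18 (3.18 to 5.57). In each of these 3 genes the interval of the ratio lay above 2. KRT15, a type I keratin of basal cells, was at 4.74 CPM in AGS overexpression and 2.44 CPM in the AGS control, a ratio of 1.94 (1.52 to 2.49). KRT5, the main type II keratin of basal cells, held 2 reads in AGS overexpression and 0 in the AGS control, both within the 3 reads that a count of 0 allows (0.0731 CPM in that library). The median change of the 4 measured squamous keratins was 1.39.

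In MKN74 all 10 keratins were measured. KRT5 alone was at least 2-fold higher, 1 of 10 where 3.26% of all measured genes were, and KRT6A and KRT13 were lower, 2 of 10 where 1.35% were. With a pseudocount of 0.1 in place of 1, KRT7 joined KRT5, with a change of 1.52, which made the count of higher keratins 2. KRT7 was under 1 CPM in the MKN74 control and counted as measured only through the overexpression library. KRT5 was at 475 CPM in MKN74 overexpression and 169 CPM in the MKN74 control, a change of 1.49, the ratio being 2.81 (2.74 to 2.89). KRT6A was at 1495 CPM in MKN74 overexpression and 4291 CPM in the MKN74 control, a change of -1.52, the ratio being 0.348 (0.345 to 0.351). KRT13 was at 5.37 CPM in MKN74 overexpression and 29.3 CPM in the MKN74 control, a change of -2.25, the ratio being 0.183 (0.159 to 0.210). KRT17 did not differ beyond counting error, at 387 CPM in MKN74 overexpression and 385 CPM in the MKN74 control, with a ratio of 1.01 (0.984 to 1.03). KRT15 was at 2.94 CPM in MKN74 overexpression and 4.09 CPM in the MKN74 control, a ratio of 0.720 (0.570 to 0.907). The median of the 5 was -0.37, a value that stands between members of opposite direction.

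Both directions occurred side by side in the genome. KRT5 and KRT6A, type II genes, are neighbours on chromosome 12, and KRT8 lies in the same gene cluster next to KRT18, the type I gene placed there. The promoter table from RefSeq (GRCh38.p14) matched 2 of the 10 genes, KRT5 and KRT8, and their 250 bases before the listed transcription start are shown because these type II genes differed in opposite directions in MKN74. They lie at chr12:52520395-52520644 and chr12:52926470-52926719, both on the minus strand. RefSeq lists 3 mRNA transcripts of KRT8, and the window belongs to 1 start. Whether the KRT8 reads came from that start was not determined.
KRT5: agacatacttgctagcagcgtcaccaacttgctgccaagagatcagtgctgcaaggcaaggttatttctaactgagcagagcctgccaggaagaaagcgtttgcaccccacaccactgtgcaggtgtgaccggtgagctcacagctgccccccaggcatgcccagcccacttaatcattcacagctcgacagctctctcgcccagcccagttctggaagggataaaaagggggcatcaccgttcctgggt
KRT8: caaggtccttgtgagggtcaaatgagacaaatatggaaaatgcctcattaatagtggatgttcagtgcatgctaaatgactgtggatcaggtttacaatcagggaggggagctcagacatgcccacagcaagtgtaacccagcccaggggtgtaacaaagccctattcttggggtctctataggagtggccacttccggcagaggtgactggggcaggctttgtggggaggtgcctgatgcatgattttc
No letters are in capitals, because none of the motifs searched on both strands was found in either window. They were ATCAAT and ATCGAT, forms of the ONECUT site present in 5.58% and 0.652% of 34943 windows of this length, TGANTCA (AP-1, 6.59%), TATAA (19.0%), GGGCGG (Sp1, 42.5%) and GCCNNNGGC (AP-2, 19.7%). The absence of these letters from 250 bases says nothing of binding elsewhere.

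KRT6A shares sequence with KRT6B and KRT6C, so the split of reads among them is uncertain. The sum of the 3 genes was at 10.4 CPM in AGS overexpression and 3.44 CPM in the AGS control, a ratio of 3.01 (2.49 to 3.67). In MKN74 overexpression it was at 1498 CPM and in the MKN74 control at 4304 CPM, a ratio of 0.348 (0.345 to 0.351). Each of the 3 was lower in MKN74 overexpression on its own, KRT6B at 1.701 against 8.68 CPM in the control and KRT6C at 1.16 against 4.09 CPM.

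KRT6A held most of the squamous reads in MKN74 and decided the class sum there. All squamous keratins together stood at 2365 CPM in MKN74 overexpression and 4878 CPM in the MKN74 control, a ratio of 0.485. Without KRT6A the sum was at 870 CPM in MKN74 overexpression and 587 CPM in the MKN74 control, a ratio of 1.48 (1.46 to 1.51), so the direction of the sum rested on 1 gene. In AGS the squamous sum was at 247 CPM in overexpression and 91.8 CPM in the control, a ratio of 2.69 (2.59 to 2.79), and 2.66 without KRT6A. The simple keratins summed to 7482 CPM in MKN74 overexpression and 13006 CPM in the MKN74 control, a ratio of 0.575, and to 4158 CPM in AGS overexpression and 4907 CPM in the AGS control, a ratio of 0.847.

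The share of the 10 genes' reads that fell on squamous keratins was 5.47% (5.37 to 5.57) in AGS overexpression and 1.79% (1.74 to 1.85) in the AGS control. It was 23.8% (23.6 to 23.9) in MKN74 overexpression and 27.1% (27.0 to 27.2) in the MKN74 control, with exact binomial intervals. Reads were not scaled to transcript length, so these shares compare libraries and not amounts of protein or of molecules. The 10 genes took 0.535% of all recovered reads in AGS overexpression and 0.581% in the AGS control, and 1.20% in MKN74 overexpression against 2.08% in the MKN74 control. Within the squamous class the lines were built differently. KRT17 held 81.1% of its reads in AGS overexpression and 81.5% in the AGS control, whereas in MKN74 KRT6A led with 63.2% in overexpression and 88.0% in the control, and KRT5 held 20.1% in overexpression against 3.46% in the control.

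**Figure D3:**
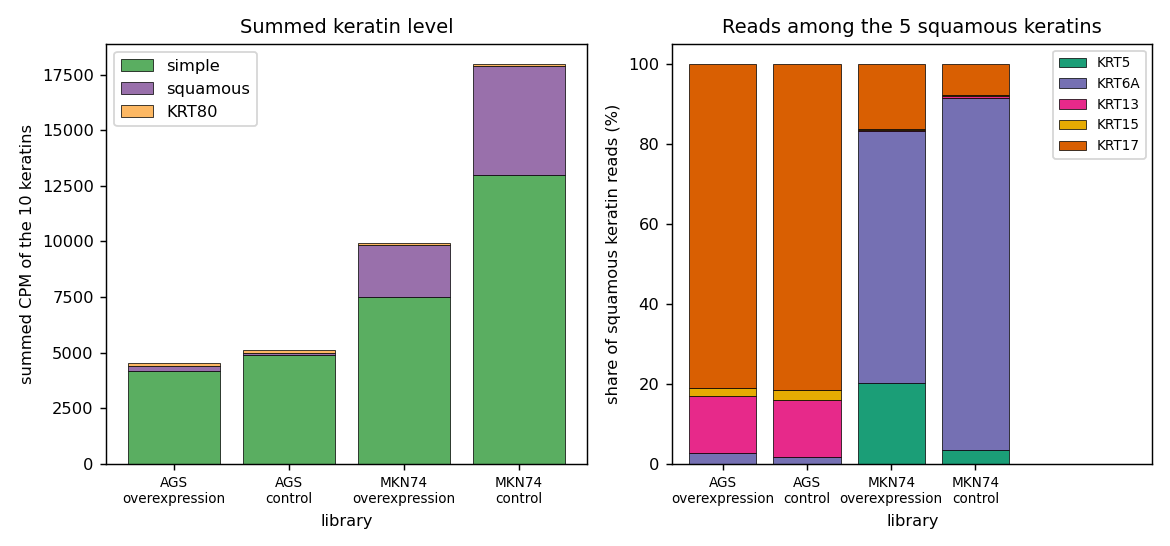
Left, summed CPM of the simple keratins, the squamous keratins and KRT80 in each library; right, the share of each gene in the reads of the 5 squamous keratins (percent). The stacked bars on the left end lower in each overexpression library than in its control, and the KRT5 segment on the right is 20.1% in MKN74 overexpression and 3.46% in the MKN74 control.

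KRT80, a type II keratin found in many epithelia, was at 107 CPM in AGS overexpression and 123 CPM in the AGS control, and at 103 CPM in MKN74 overexpression and 108 CPM in the MKN74 control. Its ratios were 0.864 (0.830 to 0.900) in AGS and 0.953 (0.914 to 0.993) in MKN74. Its range over the 4 libraries, 0.26 on the log2 scale, was the smallest of the 10 genes.

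Between the lines, KRT5 and KRT6A stood furthest apart. For the p-values given here, the overexpression and control libraries of a line stood in for replicates of that line. In a limma fit of the 4 libraries on line and overexpression, 5 of the 10 keratins were called different between MKN74 and AGS at a Benjamini-Hochberg adjusted p under 0.05, all higher in MKN74, where 43.2% of all 12340 tested genes were called. KRT6A was at 1495 and 4291 CPM in MKN74 overexpression and control against 6.52 and 1.56 CPM in AGS overexpression and control, a limma difference of 9.17 (SE 0.74, adjusted p = 0.00226). KRT5 in the MKN74 control was at least 2308-fold higher than in the AGS control, taking 3 reads for the 0 observed there. In the overexpression libraries the ratio was 10269 (2842 to 84802), resting on 2 AGS reads, and the limma difference was 8.12 (SE 0.38, adjusted p = 0.000788). KRT18 differed by 1.71 (SE 0.26, limma adjusted p = 0.0106) and KRT17 by 1.65 (SE 0.37, limma adjusted p = 0.0263). KRT8 differed by 1.16 (SE 0.28, limma adjusted p = 0.0307), and this call was lost with quantile normalization (limma adjusted p = 0.0530) and without overexpression in the fit (0.0584).

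For these 5 genes every MKN74 library was above every AGS library. The difference was not called for KRT13 (-0.70, SE 0.88), KRT7 (-0.68, SE 0.27), KRT19 (-0.53, SE 0.22), KRT80 (-0.12, SE 0.16) and KRT15 (0.013, SE 0.35). KRT13 changed its order with the arm, at 5.37 CPM in MKN74 against 35.2 CPM in AGS among the overexpression libraries and at 29.3 CPM in MKN74 against 13.0 CPM in AGS among the controls. KRT15 changed order in the same way, at 2.94 CPM in MKN74 against 4.74 CPM in AGS with overexpression and at 4.09 CPM in MKN74 against 2.44 CPM in AGS in the controls.

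Taking the lines as replicates, limma called 0 of the 10 keratins for an overexpression effect common to both lines, and 0% of the 12340 genes. At an unadjusted p under 0.05 there were 0 of the 10 keratins and 566 genes, and with voom weights on the recovered reads 0 genes were called and 902 had such a p, 1 keratin among them. The fit leaves 1 residual degree of freedom. The common change was -0.57 (SE 0.26) for KRT18, -0.55 (SE 0.28) for KRT8 and 0.64 (SE 0.27) for KRT7. Each had a limma adjusted p of 0.800 and the same direction in both lines. For KRT8 that direction was not stable to scaling. Quantile normalization gave it a change of 0.11 in AGS and -0.61 in MKN74. For KRT6A, with opposite changes in the lines, the common change was 0.017 (SE 0.74), and -0.60 with voom weights. Of the 9 keratins measured in both lines, KRT6A and KRT13 were at least 2-fold higher in AGS overexpression and at least 2-fold lower in MKN74 overexpression, as were 0.232% of 10766 genes.

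The table listed 14 further keratins. In AGS 8 of them were measured, with a median change of 0.88. Of these, 4 were at least 2-fold higher and 0 lower, against 4.19% and 0.728% of all measured genes. Of the 4, KRT23, KRT86 and KRT16 were under 1 CPM in the control and counted as measured only through the overexpression library. KRT23, a type I keratin, showed the largest difference, at 15.4 CPM in AGS overexpression (664 reads) and 0.463 CPM in the AGS control (19 reads), a ratio of 33.1 (21.1 to 55.4). KRT81, a hair-type type II keratin, was at 6.96 CPM in AGS overexpression and 1.44 CPM in the AGS control, and its near-identical relative KRT86 at 2.40 and 0.561 CPM, so the split between them is uncertain. KRT16, a type I partner of the KRT6 proteins, was at 1.80 CPM in AGS overexpression and 0.390 CPM in the AGS control, a ratio of 4.62 (2.68 to 8.48). KRT16 shares sequence with KRT14 and KRT17.

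In MKN74 12 of the 14 were measured, with 2 higher and 2 lower, against 3.26% and 1.35% of all measured genes, and a median change of -0.18. KRT20, a keratin of intestinal and gastric surface cells, was at 3.84 CPM in MKN74 overexpression and 0.407 CPM in the MKN74 control, a ratio of 9.44 (5.73 to 16.6). KRT31, a hair keratin, was at 2.07 CPM in MKN74 overexpression (95 reads) and 0.0957 CPM in the MKN74 control (4 reads). KRT6B and KRT6C were the lower ones. KRT20 and KRT31, the higher ones, were under 1 CPM in the control and counted as measured only through the overexpression library. KRT23 was at 785 CPM in MKN74 overexpression and 489 CPM in the MKN74 control, KRT16 at 28.1 and 43.2 CPM, and KRT1, a keratin of cornifying skin, at 27.1 and 22.5 CPM, where both AGS libraries had 0 KRT1 reads.

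**Figure D4:**
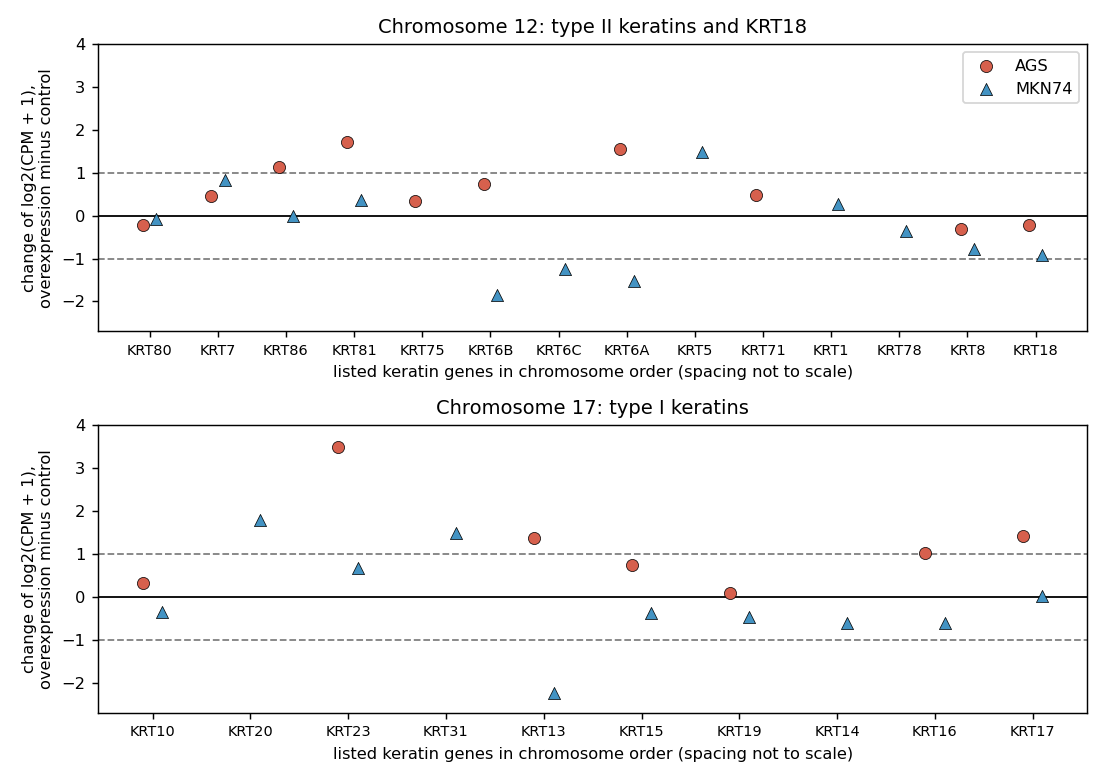
Change of log2(CPM + 1), overexpression minus control, for the listed keratins in their order along chromosomes 12 and 17, in AGS (circles) and MKN74 (triangles), leaving out genes not measured in a line. The triangles of the neighbours KRT6B, KRT6C and KRT6A lie at -1.84, -1.24 and -1.52 and that of KRT5, the next gene, at 1.49.

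Genes that act with or around keratins were counted from lists. Of 12 linkers that tie keratin filaments to desmosomes and other structures, 0 differed 2-fold in either line. Over all measured genes 4.19% were higher and 0.728% lower in AGS, and 3.26% higher and 1.35% lower in MKN74, so 0 of a list this short is near the share of all genes. Their median change was 0.12 in AGS (11 measured) and -0.22 in MKN74 (12 measured). The cytolinker PLEC was at 453 CPM in AGS overexpression and 313 CPM in the AGS control, and at 410 CPM in MKN74 overexpression and 651 CPM in the MKN74 control. PPL, a cornified envelope linker, changed by 0.66 and -0.25 in AGS and MKN74, PERP, a desmosomal membrane protein, by 0.42 and -0.76, and the plakin EPPK1 by 0.097 and -0.68.

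Of 35 squamous differentiation genes 26 were listed. In AGS 6 of 13 measured were at least 2-fold higher with overexpression and 0 lower, against 4.19% and 0.728% of all measured genes. Some of the 6 were under 1 CPM in the control and counted as measured only through the overexpression library. The median change was 0.68. In MKN74 3 of 25 were higher and 9 lower, against 3.26% and 1.35% of all measured genes, with a median of -0.72. EMP1, a membrane protein of squamous epithelium, was at 82.6 CPM in AGS overexpression and 19.8 CPM in the AGS control, and at 113 CPM in MKN74 overexpression and 421 CPM in the MKN74 control. DSG3, a desmosomal cadherin of stratified epithelium, was at 9.55 CPM in MKN74 overexpression and 68.7 CPM in the MKN74 control, with 3 reads or fewer in AGS. SERPINB2 changed by 2.57 in AGS and 0.92 in MKN74. The 3 genes higher in MKN74 were the transglutaminase TGM3 (45.4 CPM in overexpression, 2.15 CPM in the control), the cadherin FAT2 (20.6 CPM in overexpression, 5.57 CPM in the control) and TP63. TP63, the p63 transcription factor of basal squamous cells, was at 2.16 CPM in MKN74 overexpression and 0.311 CPM in the MKN74 control, a ratio of 6.94 (3.88 to 13.5). It too counted as measured only through the overexpression library. The 9 genes lower in MKN74 were IVL, SPRR1B, SPRR2D, DSG3, SERPINB5, GJB2, GJB6, EMP1 and PI3. Apart from EMP1 and DSG3 these, and TP63 and FAT2, were named after their values were seen. TP63 had 1 read in each AGS library.

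Of 22 transcription factors of epithelial keratin programmes, a list that also holds TP63, 18 were measured in AGS and 20 in MKN74. In AGS 2 were at least 2-fold higher, against 4.19% of all measured genes, and in MKN74 5, against 3.26%. In either line 0 were lower, against 0.728% in AGS and 1.35% in MKN74. Median changes were 0.23 and 0.19. Some of the 5 higher in MKN74, TP63 among them, were under 1 CPM in the control and counted as measured only through the overexpression library. EHF, an epithelial ETS factor, was at 27.1 CPM in AGS overexpression against 4.32 CPM in the AGS control and at 32.5 CPM in MKN74 overexpression against 3.71 CPM in the MKN74 control. CEBPB changed by 2.005 in AGS and -0.093 in MKN74, and NOTCH1 by 0.39 and 1.52. Among other intermediate filament genes 1 of 6 measured was higher in AGS and 0 lower, against 4.19% and 0.728% of all measured genes. This gene was DES, the muscle filament desmin, at 16.2 CPM in AGS overexpression and 2.95 CPM in the AGS control. In MKN74 0 of 5 differed 2-fold, where 3.26% of all measured genes were higher and 1.35% lower. LMNB1 changed by -0.50 in AGS and -0.0019 in MKN74, NES by -0.69 and -0.34, and SYNM, measured in MKN74 only, by 0.45. Of the epithelial identity markers 1 of 10 was higher in MKN74, CLDN3 (5.21 CPM in overexpression, 1.82 CPM in the control). Their summed level was 2688 CPM in AGS overexpression against 1891 CPM in the AGS control and 2746 CPM in MKN74 overexpression against 2114 CPM in the MKN74 control. Of the 2 immune markers 1, LYZ, was higher in MKN74, where 3.26% of all measured genes were. LYZ stood at 6.89 CPM in overexpression and 0 reads in the control, and counted as measured only through the overexpression library. CD68 and COL1A1 did not pass 2-fold in either line. CLDN4 changed by 0.74 in AGS and 0.34 in MKN74, and CLDN7 by 0.91 and 0.22. The part of these markers in the keratin differences was not tested.

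The genes whose profile lay nearest to each keratin over the 4 libraries were found by the Euclidean distance between log2(CPM + 1) values, each centred on the gene's mean. This was done for the 7 keratins with a range of at least 1. For KRT17 they were S100A14 (distance 0.15), LINC01356 and PVRL4, and S100A14 was at 260 and 105 CPM in AGS overexpression and control and at 471 and 519 CPM in MKN74 overexpression and control. For KRT18 they were EMC3-AS1 (0.054), an antisense RNA gene whose reads are uncertain without a stated strand setting, MYO5A and ALG14, and for KRT8 COL28A1 (0.13) and FNBP1L. KRT7 lay nearest to KIAA1462 (0.044), ZFP36 and DUSP22. The closest genes lay farther away for KRT13, where they were IL20RA (0.64), SNTB1 and AUTS2, for KRT5, where they were BMP7 (0.84), PFN2 and CDH3, and for KRT6A, where they were RDX (1.78), BMP7 and FSCN1. Distances were not scaled to a gene's range, which was 2.51 for KRT13, 8.89 for KRT5 and 10.7 for KRT6A. The ranges of KRT7, KRT8, KRT18 and KRT17 were smaller, at 1.32, 1.71, 2.28 and 2.36. IL20RA was at 12.6 CPM in AGS overexpression against 7.78 CPM in the AGS control, and at 3.18 CPM in MKN74 overexpression against 14.5 CPM in the MKN74 control. With 4 libraries such nearness is a description.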

How the data were processed

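The labels describe 12 samples, and only the 4 RNA libraries, made with an Illumina TruSeq kit per the labels' protocols, were used, leaving 8 ChIP samples not analysed here. Among the tools in the submitters' processing notes are STAR 2.5.1, edgeR 3.12.1 and, with no role stated either, HOMER 4.9.1, Bowtie2 2.1.0 and CASAVA 1.7, and the build is hg19. The sources used here do not give the counter, annotation or strand setting, so overlapping, antisense and near-identical genes are uncertain.

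Expression came as log2 values that the authors deposited as 13109 rows named by gene symbol, 1 column per library. By the values it is log2(CPM + 1): undoing the log gives whole multiples of 1 step per library for 100% of values (at most 2.61e-08 reads from whole), which gave the read counts used for intervals. A read was worth 0.0218 to 0.0244 CPM. The recovered reads are 83.1% to 88.1% of the library size that the step implies. After 18 rows named by dates (0.218% to 0.239% of reads) were dropped, 13091 genes were left. With 1 library per group, intervals speak for counting error alone. The reads carry no molecular identifiers, so duplicate reads count as separate and the intervals may be too narrow even for that.

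Groups came from the titles and descriptions. The limma fit (line and overexpression as terms, mean trend, Benjamini-Hochberg over the 12340 genes averaging 1 CPM or more across all 4 libraries, threshold 0.05) took the line as the block, since each line gave both arms. Within a line there was no test. With 1 residual degree of freedom, the p-values rest on how far the overexpression change differed between the lines, moderated over all genes. They measure no spread between replicates of a group. For the line difference, the overexpression and control libraries of a line stood in for replicates. The reference held no protein or transcript lengths, so levels were not scaled to length. The fit and the interval were tested on simulated data in which planted changes were alike in both lines. That setting does not cover opposite changes such as those of KRT6A and KRT13. The keratins and the 11 gene lists were chosen with earlier results of these data known. Genes named outside the keratins were ONECUT2, up to 4 per list by the largest change in either line, and the 3 nearest profiles, besides those said to be chosen after seeing values. A few genes that this rule names are not reported here. Alternatives were other pseudocounts, filters, scalings, size rules and moderation, voom, and a fit without the block. The fits ran in limma 3.58.1 under R 4.3.3, and all else in Python 3.11.15 with scipy 1.17.1, pandas 2.3.3, numpy 2.4.6 and, for figures, matplotlib 3.10.9.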

Additional observations from a re-analysis of the deposited data

Results flagged for a closer look

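KRT6A and KRT13 stood out because the overexpression library lay above its control in AGS and below its control in MKN74. For KRT6A the change in AGS minus that in MKN74 was 3.08 on the log2(CPM + 1) scale. For KRT13 it was 3.63. With 1 library per group and line the difference was not tested.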

How the results depend on the processing

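The main counts were 3 keratins higher and 0 lower in AGS overexpression, and 1 higher and 2 lower in MKN74 overexpression. In AGS, 0 keratins were 4-fold higher on the log2(CPM + 1) scale, although the ratio of CPM was 4.18 for KRT6A. In MKN74, 2 keratins were higher with a pseudocount of 0.1, when KRT7, measured there only through the overexpression library, joined KRT5. At 1.5-fold 2 were higher there and 4 lower, and at 4-fold 0 were higher and 1, KRT13, was lower. At a mean of at least 5 CPM KRT6A was no longer measured in AGS. The other counts within a line were equal to the main ones or within 1.5 times of them. The keratins called between the lines numbered 5, and 4 with quantile normalization or with no replicate block, when KRT8 was lost. Those called for a common overexpression effect numbered 0 under every alternative run. No change of at least 2-fold turned its direction under another pseudocount or scaling. Leaving out a line leaves the change of the other line as a value with no test. The scaling of squamous shares to coding length was not run, since no lengths were at hand, and the shares stand as reads. Depth limits the genes with few reads, KRT5 in AGS and KRT7 in the MKN74 control.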

Other observations

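The genes at least 2-fold higher in AGS overexpression and at least 2-fold lower in MKN74 overexpression numbered 25 and held several other genes of squamous or barrier epithelium beside KRT6A and KRT13. These were picked after their values were seen and had no test. SCEL, which encodes sciellin of the cornified envelope, changed by 1.43 in AGS and -1.83 in MKN74. The matrix gene ECM1 changed by 1.40 in AGS and -1.86 in MKN74, the kallikreins KLK6, KLK8 and KLK14 by 1.35, 1.88 and 1.49 in AGS and by -1.29, -1.15 and -2.16 in MKN74, and COL17A1, a hemidesmosome collagen of basal cells, by 2.28 in AGS and -1.03 in MKN74.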
